A study of Mus musculus with 3 samples.

Results

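Cytochromes P450 that oxidise drugs, steroids and other small molecules were examined in the liver of mice fed either of the main isomers of conjugated linoleic acid (CLA). The set held every probe set annotated to a single gene symbol of the form Cyp, family number, subfamily letter and gene number. The omega-oxidation genes Cyp4a10 and Cyp4a14 and the bile acid genes Cyp7a1, Cyp7b1, Cyp8b1 and Cyp27a1 were left out. This gave 39 probe sets for 33 genes of 10 CYP families, out of 10833 probe sets with a single symbol for 8251 genes. A further 7 probe sets carried several symbols with a CYP among them and were not counted as members.

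The animals were male mice homozygous for a disrupted apolipoprotein E gene on a mixed C57BL/6JxOLA129 background, the same in all groups, and no wild-type liver was included. The diets, 3 in all, were fed for 12 weeks from an age of 3 months. The control diet held linoleic acid at 1.0% by weight, and each CLA diet held the same amount of c9,t11-CLA or t10,c12-CLA, isomers that differ in the position and geometry of their double bonds. Fat supplied 30% of the energy by the design text, which describes semi-purified diets, while the sample labels speak of a western diet. The diets had 10, 10 and 9 mice, and 1 liver array per diet was analysed, so no difference has a replicate check and none was tested. The labels do not say whether each array read 1 mouse or pooled mice.

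Cytochromes P450 are haem enzymes of the endoplasmic reticulum and mitochondria that insert oxygen into their substrates, using electrons passed on from NADPH. In the liver, families CYP1, CYP2 and CYP3 clear most drugs and foreign compounds and also hydroxylate steroids, retinoids and fatty acids. Nuclear receptors, among them CAR (Nr1i3) and PXR (Nr1i2), switch many of these genes on, and the pulse pattern of growth hormone makes others specific to male or female liver. The higher families hold enzymes of steroid hormone, vitamin D and retinoic acid metabolism, most of which act outside the liver.

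The CYP genes with the largest measured differences from the control array, both on c9,t11-CLA, were Cyp2e1 and Cyp2b10. The 250 bases upstream of their transcription starts are shown for that reason. On t10,c12-CLA, Cyp2c39, at a log2 difference of 1.53, stood between Cyp2e1 at 2.15 and Cyp2b10 at 1.10. Both sequences come from RefSeq on build GRCm38.p6, plus strand: Cyp2e1 at chr7:140763569-140763818 and Cyp2b10 at chr7:25897408-25897657. Capitals mark matches on either strand to the TATA box (TATAAA), the CCAAT box (CCAAT) and a core of the sites bound by C/EBP factors (TTGCNNAA).
Cyp2e1: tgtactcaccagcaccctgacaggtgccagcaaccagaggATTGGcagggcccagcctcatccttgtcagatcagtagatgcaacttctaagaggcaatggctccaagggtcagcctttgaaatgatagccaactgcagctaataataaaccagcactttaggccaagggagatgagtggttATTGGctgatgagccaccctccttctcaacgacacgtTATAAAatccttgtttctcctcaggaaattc
Cyp2b10: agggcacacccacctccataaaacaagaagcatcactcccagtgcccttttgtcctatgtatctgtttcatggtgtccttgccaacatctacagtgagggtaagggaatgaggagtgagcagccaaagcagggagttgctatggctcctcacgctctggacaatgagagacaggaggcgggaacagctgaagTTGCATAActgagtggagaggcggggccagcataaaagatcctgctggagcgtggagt
The Cyp2e1 window held a TATA box from 31 to 26 bases before the start and CCAAT boxes on the minus strand from 210 to 206 and from 68 to 64 bases. The Cyp2b10 window held the C/EBP core from 58 to 51 bases before the start and neither of the other motifs. Among 27025 windows of the same length, 13% held TATAAA, 34.5% CCAAT and 9.55% TTGCNNAA. Of the 33 CYP genes, 30 had a window in the table, and 13 of these held TATAAA, 9 CCAAT and 5 TTGCNNAA. A nuclear receptor half-site (AGGTCA) and an HNF1 half-site (GTTAAT) were also searched for, and neither window shown held them. Of the 30, 10 held AGGTCA and 1 GTTAAT, against 13.8% and 6.52% of the 27025 windows. These matches describe the letters only and say nothing of whether a factor binds.

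Signals are MAS5 intensities of probe sets on a linear scale. Where 3 signals are listed, they run from control through c9,t11-CLA to t10,c12-CLA, and paired log2 differences from control run from c9,t11-CLA to t10,c12-CLA. Of several probe sets for a gene, the brightest on average (mean log2 signal) was used. A gene was taken as measured in a comparison when both signals lay above a floor of 490.3, the median of all signals. Of the 33 genes, 19 lay above the floor on all 3 arrays, 9 on none and 5 on some arrays only. The arrays shared a 2%-trimmed mean of 1501, and their medians were 457, 524 and 487. Bacterial spike controls, read by 9 probe sets, had ratios to the control array of 1.02 to 2.12 for c9,t11-CLA and of 0.90 to 1.26 for t10,c12-CLA. Signal ratios of 3′ to 5′ ends, which rise as RNA degrades, were 1.06, 0.98 and 0.78 in Gapdh. In beta-actin they were 1.40, 1.89 and 1.35. All 9 hepatocyte markers were above the floor on all arrays, and their summed signal was 213402, 425387 and 230841, highest on c9,t11-CLA. On that array 8 of the 9 were above control, and Ttr was below it, at a log2 difference of -0.94. None of 4 bile duct markers on the arrays was above the floor. The 11 Kupffer cell and macrophage markers on the arrays summed to 68583, 61318 and 94421, with 10 above the floor on all arrays. Of these, 9 were above control on t10,c12-CLA, with a median of 0.42. The 9 stellate cell and fibroblast markers summed to 45006, 39227 and 55382, with 5 above the floor on all arrays. This list was mixed on t10,c12-CLA. Of 7 measured there, 4 were above control and 3 below it, with Bgn at 1.18 and the brightest marker, Dcn, at -0.17. The part of these shifts in CYP signals was not tested.

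**Figure D1:**
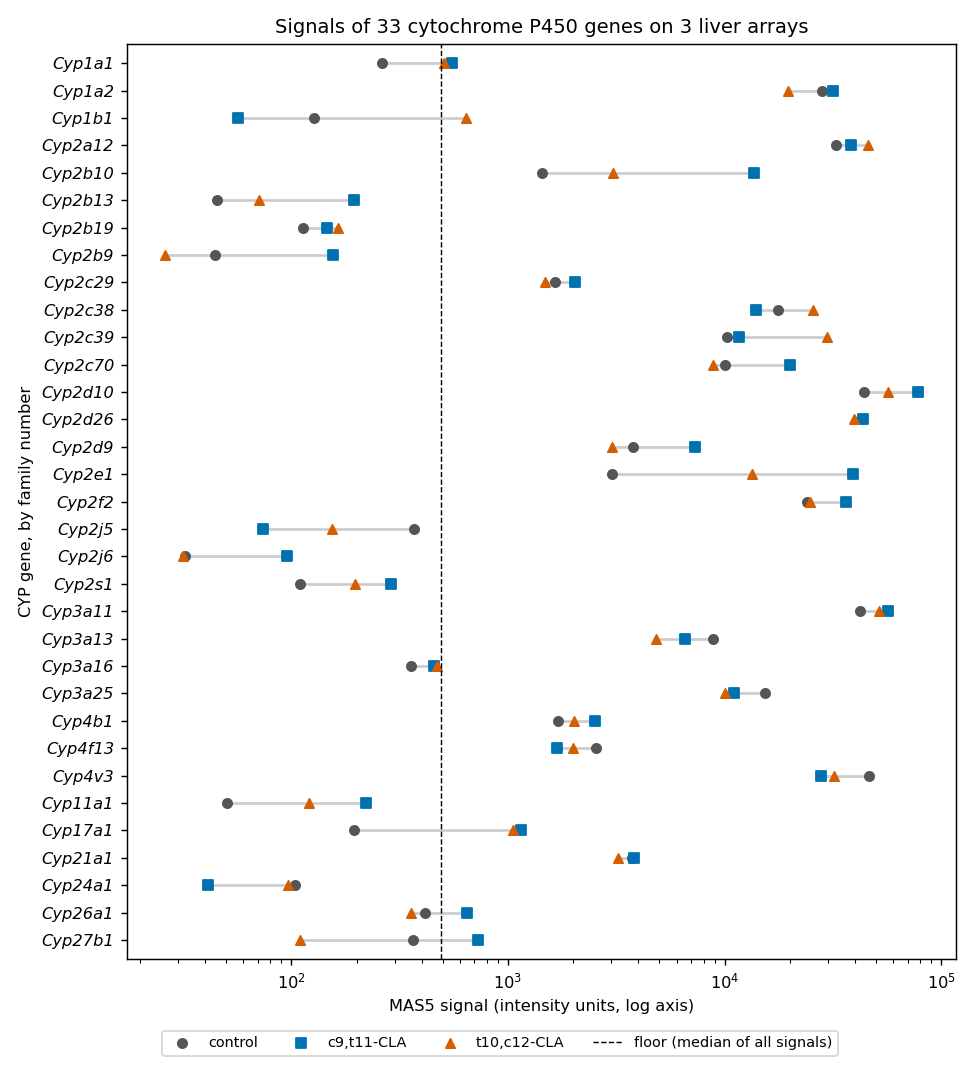
MAS5 signal (log axis) of the 33 CYP genes on the control (circle), c9,t11-CLA (square) and t10,c12-CLA (triangle) arrays, 1 array per diet, with the floor of 490.3 as a dashed line. Cyp2e1 and Cyp2b10 have the widest spread among the genes above the floor on all 3 arrays, and 9 genes lie below the floor throughout.

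Cyp2e1, which oxidises ethanol, acetone and paracetamol and is strongest in the hepatocytes around the central vein, gave signals of 3022, 39035 and 13411. The control array was lowest and the c9,t11-CLA array highest. The signal was 12.9-fold that of control on c9,t11-CLA and 4.44-fold on t10,c12-CLA, log2 differences of 3.69 and 2.15. Cyp2b10, the gene most used as a readout of CAR, gave signals of 1428, 13715 and 3056. It stood in the same order, 9.60-fold and 2.14-fold above control. Between the isomers, Cyp2e1 was 2.91-fold and Cyp2b10 4.49-fold lower on t10,c12-CLA than on c9,t11-CLA. Each of these 6 differences stayed beyond 2-fold under every alternative in which the gene was measured. Both genes were read by a single probe set, not marked as prone to cross-hybridise. Other floors and probe set choices therefore could not change these values, and only the rescaled signals and the pseudocount could. Whether the Cyp2b10 probe set also reads its Cyp2b neighbours could not be checked without probe sequences. Cyp2b10 stood close to the 2-fold line on t10,c12-CLA against control, with a log2 difference of 1.01 when the array medians were made equal.

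Of the non-CYP markers of hepatocytes around the central vein, the 4 above the floor throughout had their highest signal on other arrays than Cyp2e1. Oat, ornithine aminotransferase, gave 31732, 8934 and 17885. The glutamate transporter Slc1a2 gave 1084, 540 and 566, and glutamine synthetase, Glul, gave 3626, 2849 and 2542. These were highest on the control array, where Cyp2e1 was lowest, while Aldh3a2, an aldehyde dehydrogenase, was highest on t10,c12-CLA at 16279, 6021 and 21390. Summed over the 6 genes of this marker list on the array that are not CYP members, the signal was 53332, 18708 and 42913, and 4 of the 6 were above the floor on all arrays. Cyp1a2, another enzyme of these cells, which clears caffeine, gave 28120, 31468 and 19502, with log2 differences of 0.16 and -0.53. With equal array medians the first was -0.03. In whole liver, fewer cells of a type and less RNA per cell cannot be told apart.

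Cyp2b13, next to Cyp2b10 on the chromosome, and Cyp2b9, next to Cyp2b13, which are female-specific in adult mouse liver, stayed below the floor on all arrays. Cyp2b13 gave 45.6, 196 and 70.8, and Cyp2b9 gave 44.3, 156 and 26. Cyp2b19, an enzyme of skin keratinocytes, gave 114, 146 and 164. No fold is given for signals this close to background.

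Within the Cyp2c subfamily, genes differed in which array was highest. Cyp2c39, a retinoic acid hydroxylase, gave signals of 10206, 11686 and 29526. The t10,c12-CLA array stood apart, 2.89-fold above control and 2.53-fold above c9,t11-CLA. Its neighbour Cyp2c38 gave 17660, 14020 and 25552 and was also highest on t10,c12-CLA, 1.45-fold above control, by a probe set marked as prone to cross-hybridise. Cyp2c29, an epoxygenase that lies on the other side of Cyp2c39, gave 1649, 2047 and 1480 and was lowest on t10,c12-CLA. The 3 genes are direct neighbours with no other protein-coding gene between them and closely related in sequence, so how far each probe set reads only its own gene is uncertain.

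Cyp2c70, which makes the muricholic acids of mouse bile, gave signals of 10076, 19980 and 8792. The c9,t11-CLA array was highest, at 1.98-fold above control and just short of the 2-fold line, and the t10,c12-CLA array was 2.27-fold below c9,t11-CLA. Cyp2d9, a testosterone 16-alpha-hydroxylase specific to male liver, gave 3766, 7322 and 3032. It was 1.94-fold above control on c9,t11-CLA, also just short of the line, and 2.41-fold lower on t10,c12-CLA than on c9,t11-CLA. After quantile normalization both lay past 2-fold on c9,t11-CLA, at log2 differences of 1.03 and 1.01. On t10,c12-CLA they differed from control by -0.20 and -0.31, less than the technical spread of 0.40 given with the counts.

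Cyp2d10, a neighbour of Cyp2d9, was read by 2 bright probe sets that disagreed. The brighter gave 44135, 78068 and 57025, log2 differences from control of 0.82 and 0.37, and it is marked as prone to cross-hybridise. The other gave 43250, 39517 and 35007, at -0.13 and -0.31. Cyp2d26 gave 42616, 43367 and 39388 and differed from control by 0.03 and -0.11. Its small positive difference on c9,t11-CLA was negative, at -0.17 and -0.30, with equal medians and after quantile normalization.

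The remaining CYP2 genes above the floor differed by less than 2-fold. Cyp2a12, a steroid hydroxylase, gave 32726, 38432 and 45774, with log2 differences from control of 0.23 on c9,t11-CLA and 0.48 on t10,c12-CLA. Cyp2f2, which activates naphthalene and lies in hepatocytes around the portal vein, gave 24078, 36389 and 24641, at 0.60 and 0.03, and the second was -0.06 with equal array medians. It was highest on c9,t11-CLA, and the 8 markers of those hepatocytes that are not CYP members summed to 162633, 250855 and 167366 on the same arrays. Of the 9 measured genes of that list, Cyp2f2 among them, 8 were above control on c9,t11-CLA, and Ass1 was below it, at -0.52. Ass1, at 2684, 1866 and 2824, and G6pc, at 9717, 22925 and 33304, were highest on t10,c12-CLA. The part of these marker shifts in the Cyp2f2 difference was not tested. Cyp2j5 and Cyp2j6, epoxygenases of arachidonic acid, and Cyp2s1, an enzyme of epithelia, stayed below the floor, with signals from 31.5 to 367.

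**Figure D2:**
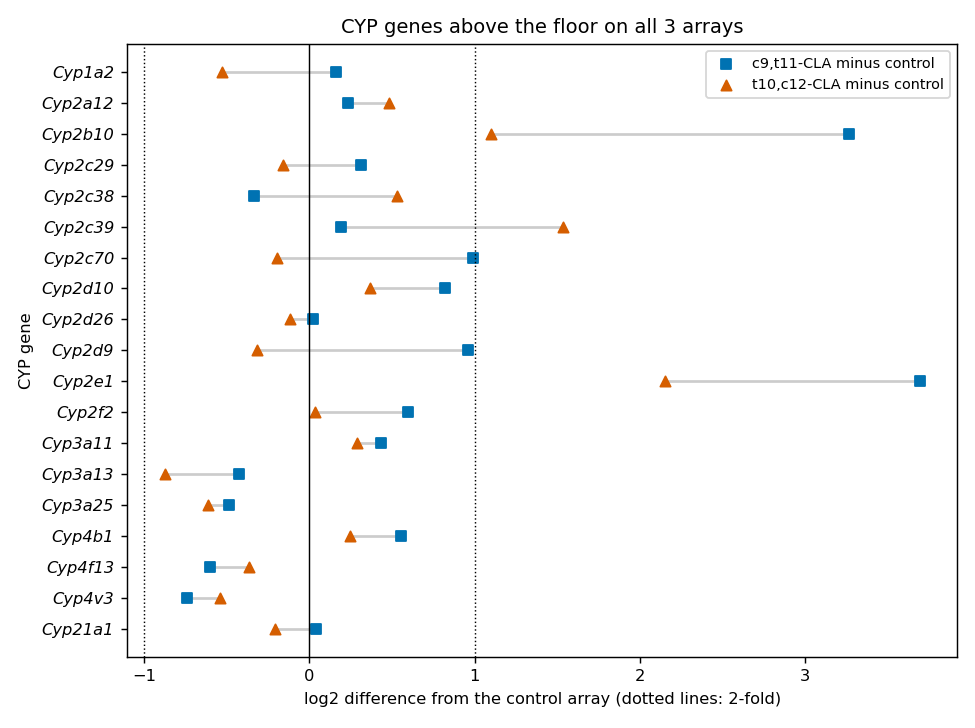
Log2 difference from the control array of the 19 CYP genes above the floor on all 3 arrays, for c9,t11-CLA (squares) and t10,c12-CLA (triangles), joined by a line per gene, with 2-fold as dotted lines. Both diets share the 1 control array. Cyp2e1, at 3.69 and 2.15, and Cyp2b10, at 3.26 and 1.10, are the genes past 2-fold on both, and Cyp2c39 passes it on t10,c12-CLA.

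The CYP3 genes, which clear the widest range of drugs and hydroxylate testosterone, were within 2-fold of control throughout, among them Cyp3a11, which CAR and PXR also switch on. Cyp3a11 gave 42017, 56670 and 51339, log2 differences of 0.43 and 0.29. After quantile normalization the first of these was -0.00, and the difference between the isomers turned from -0.14 to 0.35, so these directions depend on the scaling. Cyp3a13 gave 8823, 6580 and 4815, at -0.42 and -0.87, and Cyp3a25, a neighbour of Cyp3a11, gave 15362, 10986 and 10073, at -0.48 and -0.61. Both were lowest on t10,c12-CLA. Cyp3a16, a form of fetal and female liver, stayed below the floor.

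Of the CYP4 genes left in the set, Cyp4v3, a fatty acid omega-hydroxylase, gave signals of 46311, 27756 and 31809. The control array was highest, with log2 differences of -0.74 and -0.54 on the CLA arrays. After quantile normalization the first was -1.05, past 2-fold. Cyp4f13, of a subfamily that inactivates leukotrienes, gave 2557, 1685 and 1987 by its brighter probe set, at -0.60 and -0.36. A second probe set gave 898, 1244 and 715, at 0.47 and -0.33, so the probe sets pointed in opposite directions on c9,t11-CLA. Cyp4b1, which oxidises fatty acids and activates toxins in lung and kidney, gave 1706, 2508 and 2022, at 0.56 and 0.24.

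Of the enzymes of steroid hormone synthesis, Cyp17a1, a 17-alpha-hydroxylase of the gonads, gave signals of 194, 1147 and 1059. Control was below the floor, and both CLA arrays were above it. Against the floor in place of control, c9,t11-CLA was at least 2.34-fold higher, and t10,c12-CLA was at least 2.16-fold higher. A second probe set of Cyp17a1 gave 47.3, 96.7 and 59.1, below the floor on all arrays. Cyp21a1, the 21-hydroxylase of the adrenal cortex, gave 3721, 3825 and 3224, at 0.04 and -0.21, by a probe set marked as prone to cross-hybridise. Cyp11a1, which starts steroid synthesis from cholesterol, stayed below the floor at 50.5, 220 and 121. The other 4 genes of the adrenal marker list on the array summed to 4927, 4361 and 5201, of which Nr5a1, a nuclear receptor of steroid-making tissues, made up 4107, 3617 and 4275, and the receptor Mc2r stayed below the floor at 124, 116 and 94.4. The 3 other markers of testis Leydig cells on the array summed to 1333, 1653 and 1439, with Insl3, their peptide hormone, at 497, 725 and 510. The part of adrenal or gonadal tissue in these signals was not tested.

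Cyp26a1, Cyp27b1, Cyp24a1, Cyp1a1 and Cyp1b1 had signals near or below the floor. Cyp26a1, which breaks down retinoic acid, gave 415, 644 and 356, and Cyp27b1, which activates vitamin D, gave 364, 725 and 110. Each was above the floor on the c9,t11-CLA array only, at most 1.48-fold above it. Cyp1a1, the classic gene switched on through AHR, gave 261, 551 and 509 by one probe set and 135, 563 and 115 by another. Cyp1b1, also switched on through AHR, gave 127, 56.8 and 640 and passed the floor on t10,c12-CLA only. Its second probe set gave 40.1, 66.6 and 2.4, lowest on t10,c12-CLA and below the floor throughout, so the probe sets disagreed. Cyp24a1, which breaks down vitamin D, stayed below it.

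Counted over the set, 2 of 19 measured CYP genes were at least 2-fold higher on c9,t11-CLA than on control, where the share of all 4324 measured genes was 2.98%, and 0 were that much lower, against 2.78%. On t10,c12-CLA, 3 of 19 were 2-fold or more above control, against 2.05% of 4391 genes, and 0 were 2-fold or more below it, against 1.87%. Between the isomers, 1 of 21 was 2-fold or more above c9,t11-CLA on the t10,c12-CLA array, against 3.47% of 4382 genes, and 4 were 2-fold or more below, against 2.56%. The 4 were Cyp2b10, Cyp2e1, Cyp2d9 and Cyp2c70. A further 4 CYP genes on c9,t11-CLA and 3 on t10,c12-CLA passed the floor on 1 array of the pair with control, and of these Cyp17a1 was past 2-fold by its bound. By that bound, 1 of the 4 was higher on c9,t11-CLA, against 6.47% of all such genes, and 0 lower, against 4.04%. On t10,c12-CLA 1 of the 3 was higher, against 4.59%, and 0 lower, against 2.64%. Between the isomers 0 of 3 CYP genes passed 2-fold by the bound in either direction, against 5.77% each way.

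By family, the 11 measured CYP2 genes had medians of 0.60 on c9,t11-CLA, with 10 positive and 1 negative, and 0.37 on t10,c12-CLA, with 7 positive and 4 negative. Of the 10, Cyp2c39 and Cyp2d26 were negative with equal array medians. The signs over all genes are given below. Between the isomers the CYP2 median was -0.47. The 3 measured CYP3 genes had medians of -0.42 and -0.61, and the 3 measured CYP4 genes of -0.60 and -0.36. Every CYP gene past 2-fold with both signals above the floor was a CYP2 gene.

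The median log2 difference of the 19 measured CYP genes was 0.23 on c9,t11-CLA, beside 0.02 over all measured genes. With equal array medians it was 0.04, beside -0.16. As deposited, 14 CYP genes were positive and 5 negative, where 2257 of all 4324 measured genes were positive and 2067 negative. With equal array medians Cyp1a2, Cyp21a1, Cyp2c39 and Cyp2d26 turned negative there, at -0.03, -0.16, -0.0003 and -0.17. The split of all genes under that setting was not counted. On t10,c12-CLA the CYP median was -0.11 beside -0.01. There 9 CYP genes were positive and 10 negative, where 2155 of all 4391 genes were positive and 2233 negative. Between the isomers the CYP median was -0.25 over 21 genes, beside -0.05 over all genes. Of the 21, 5 were positive and 16 negative, where 2004 of all 4382 genes were positive and 2377 negative. The comparisons with control share the 1 control array. The c9,t11-CLA array gave the highest of the 3 signals for 12 of the 19 genes, the control array for 4 and the t10,c12-CLA array for 3, where over all 4154 genes above the floor on every array these shares were 38.6%, 31.9% and 29.6%.

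The technical spread of a log2 difference was estimated from paired probe sets of the same gene on the same arrays. It leaves out variation between mice and any error shared by the probe sets of an array. It was 0.51 (SD, 529 pairs) for c9,t11-CLA against control, 0.40 (SD, 566 pairs) for t10,c12-CLA against control and 0.51 (SD, 553 pairs) between the isomers. Of the CYP genes, 10 of 19, 10 of 19 and 13 of 21 differed by less than this. The SD of the differences over all measured genes was close to it, at 0.53, 0.47 and 0.55. The share of all genes within the technical spread was not counted, so these counts do not set the CYP genes apart.

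**Figure D3:**
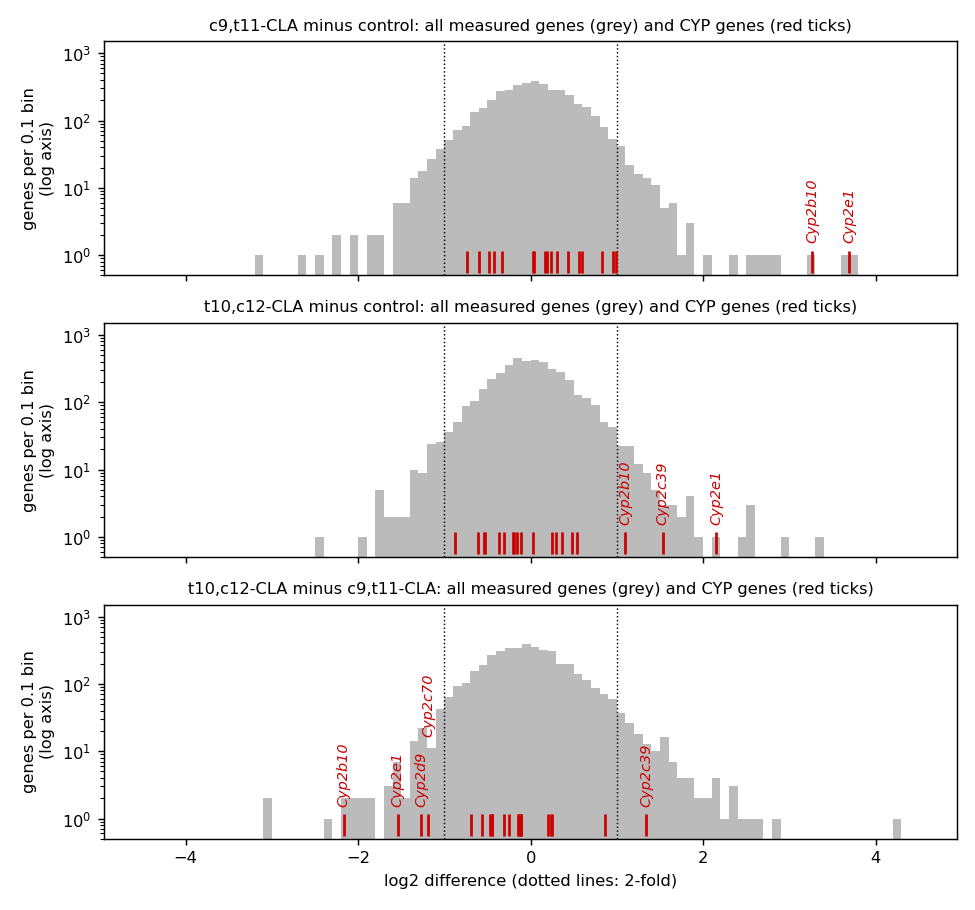
Number of genes (log axis) by log2 difference for all measured genes (grey, 4324, 4391 and 4382 genes from top to bottom) with each measured CYP gene as a red tick and those past 2-fold (dotted lines) named. Cyp2e1 and Cyp2b10 lie at the far right for c9,t11-CLA against control, and most CYP genes lie within the bulk of all genes.

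By role, 4 genes of the set are known to be switched on through CAR or PXR (Cyp2b10, Cyp2c29, Cyp3a11 and Cyp3a13). Their medians were 0.37 on c9,t11-CLA and 0.07 on t10,c12-CLA. Of the 4, 1, Cyp2b10, was at least 2-fold higher on each, where 2.98% and 2.05% of all measured genes were. Cyp2c37, also of this list, was read only by a probe set shared with Cyp2c50 and was not counted. That probe set stood at -0.32 and -1.73. The female-specific or female-enriched CYP genes in the set numbered 4, of which 3 (Cyp2b9, Cyp2b13 and Cyp3a16) were below the floor throughout, and the fourth was Cyp17a1. Cyp2a4, Cyp2c40 and Cyp2c69, also of the female list, were not counted. They were read only by probe sets shared with other genes, whose signals lay far above the floor on all arrays. Cyp2d9 was the only gene of the male list in the set. Cyp4a12b, also of the male list, has a symbol of another form and was not a member. It gave 24856, 21955 and 24597, at -0.18 and -0.02. Cyp7b1, of the same list and left out by the rule, stood at 1.19 and -1.90 by its brighter probe set. Its other probe set stood at 0.10 and -2.29. The 3 measured genes of fatty acid and eicosanoid oxidation had medians of -0.60 and -0.36.

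Regulators of CYP genes were read from a list of 25 genes, of which 17 were measured. Their median was 0.04 on c9,t11-CLA and -0.10 on t10,c12-CLA, with 0 at least 2-fold higher on either and 1 at least 2-fold lower on each. Over all measured genes, 2.98% were that much higher and 2.78% lower on c9,t11-CLA, and 2.05% and 1.87% on t10,c12-CLA, and the counts in the lists that follow are to be read beside these shares. The gene of CAR, Nr1i3, gave signals of 11012, 9415 and 9285, at -0.23 and -0.25. The gene of PXR, Nr1i2, gave 172, 1450 and 841, which puts c9,t11-CLA at least 2.96-fold and t10,c12-CLA at least 1.72-fold higher. The CAR gene was a little lower on both CLA arrays, and the PXR gene passed the floor on both. Esr1, the oestrogen receptor alpha, gave 145, 981 and 402, at least 2-fold higher on c9,t11-CLA by its bound. Ahr, the receptor that controls the CYP1 genes, gave 1171, 564 and 713, at -1.05 and -0.72. Nr0b2, a repressor of nuclear receptors, stood at -0.59 and -1.14, Cebpb, a C/EBP factor, at 0.99 and 0.68, and Foxa3, a liver forkhead factor, at -0.33 and -0.98.

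Measured genes of the electron donor and haem lists mostly differed by less than 2-fold. Of 7 measured electron donors and partners none was 2-fold different from control, with medians of 0.12 and 0.01. Of the 10 genes listed, Por, the NADPH-cytochrome P450 reductase, and Fdxr had no probe set annotated to them alone and were not read. Cyb5r3, cytochrome b5 reductase, stood at 0.69 and 0.97, Cyb5a, cytochrome b5, at 0.48 and 0.01, its mitochondrial form Cyb5b at -0.39 and 0.41, and Hsd11b1, which reactivates glucocorticoids, at -0.24 and -0.75. Of 10 measured genes of haem synthesis and breakdown, 1 was 2-fold lower on c9,t11-CLA and none on t10,c12-CLA, with medians of -0.33 and -0.06. That gene was Alad, aminolevulinate dehydratase, which gave 20235, 9377 and 11413 and stood at -1.11 and -0.83. Alas1, the rate-limiting enzyme of haem synthesis in liver, gave 43640, 45954 and 43699. It was near-level across the arrays. Blvra and Ppox stood at -0.56 and -0.52 on c9,t11-CLA, and Hmox2, a haem oxygenase, at -0.49 on t10,c12-CLA.

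Enzymes that act beside or after the CYPs were mixed. Among 11 measured oxidation and hydrolysis enzymes of foreign compounds, medians were -0.17 and -0.00. Fmo5, a flavin mono-oxygenase, gave 11767, 22619 and 29207, at 0.94 and 1.31, and Aox1, an aldehyde oxidase, stood at -0.46 and 0.89. The carboxylesterase Ces1d stood at -1.03 and -0.22, and Ces1c at 0.37 and -1.53. Conjugation enzymes had a median of 0.49 over 9 genes on c9,t11-CLA and -0.18 over 7 on t10,c12-CLA. The sulfotransferase Sult1d1 stood at 1.16 and 0.09, Sult1b1 at 0.52 and -0.87, and the methyltransferase Nnmt at 0.85 and 0.65. Sult5a1 stood at 0.61 on c9,t11-CLA and was at least 1.76-fold lower on t10,c12-CLA.

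Steroid enzymes outside the CYP superfamily had a median of 0.01 over 11 genes on c9,t11-CLA and -0.42 over 10 on t10,c12-CLA, beside 0.02 and -0.01 over all genes. On t10,c12-CLA 1 of 10 was 2-fold or more above control and 2 were 2-fold or more below it, against 2.05% and 1.87% of all measured genes, and on c9,t11-CLA none of 11 was past 2-fold either way. Hsd17b2, which inactivates oestradiol and testosterone, gave 4412, 5814 and 1626, at 0.40 and -1.44. Hsd17b12, which also serves the elongation of fatty acids, gave 3234, 3251 and 7853, at 0.01 and 1.28. Hsd17b10 stood at -0.31 and -0.95, and Hsd3b2 at -0.17 and -1.76. Hsd3b5, a hydroxysteroid dehydrogenase of male liver, gave 7239, 10059 and 171 and lay outside these counts, since t10,c12-CLA was below the floor. On that array it was at least 14.8-fold below control and at least 20.5-fold below c9,t11-CLA, the largest difference from control in this list.

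**Figure D4:**
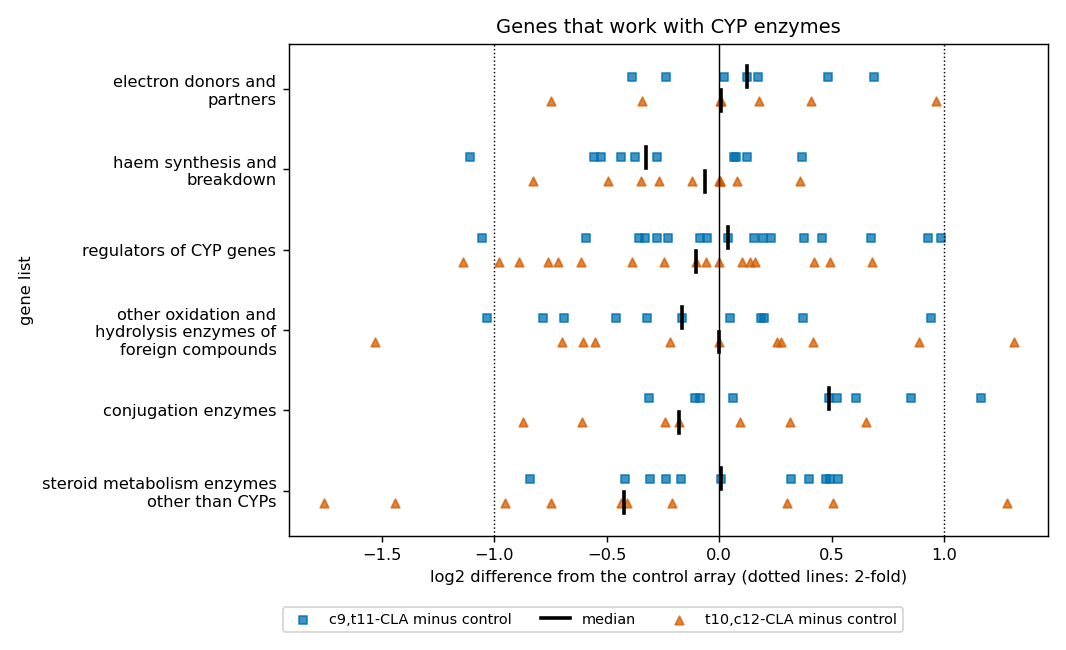
Log2 difference from the control array of measured genes in 6 lists that work with CYP enzymes, for c9,t11-CLA (squares) and t10,c12-CLA (triangles), with the median of each list as a black bar and 2-fold as dotted lines. The list medians lie between -0.42 and 0.49, and few genes pass 2-fold.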

How the data were processed

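Liver RNA was read on 1 array per diet from biotin-labelled cRNA made from 8 µg of total RNA, per the labels. The deposited values are MAS5 signals, an intensity per probe set, per the submitters' processing notes, and the nearly equal trimmed means show that the arrays had been scaled before deposit. The sources used here give no MAS5 version or scaling target, and detection calls were not used. Of 12488 probe sets, 10833 had 1 symbol in the platform annotation, and symbols were brought up to date by gene identifier in a RefSeq table of GRCm38.p6 (10817 matched). No CYP symbol changed.

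Signals were used as deposited. A difference is a log2 ratio of signals, counted from 2-fold (log2 difference of 1) when both exceeded the floor. With 1 signal above it, the fold is at least the brighter signal over the floor. No test was possible with 1 array per diet, and the number of arrays limits the precision. Full signals were to be given for CYP genes past 2-fold in any comparison and the 10 brightest, and up to 4 genes per partner list, those with the largest measured differences from control. Partner genes past 2-fold only by a bound (Nr1i2, Esr1 and Hsd3b5) were added. Cyp2d10's and Cyp4f13's probe sets and the genes Nr1i2, Esr1, Hsd3b5, Nr1i3 and Alas1, and other CYP genes with their signals, were named after their values were seen. The CYP genes and all lists were chosen with earlier results of these data known. The alternatives were equal medians, quantile normalization, floors at the 25th and 75th percentile, a pseudocount of 50 and other probe set choices. Counting was tested on simulated data. The software was pandas 2.3.3, numpy 2.4.6, matplotlib 3.10.9 and scipy 1.17.1 under Python 3.11.15.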

Additional observations from a re-analysis of the deposited data

Results flagged for a closer look

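Some CYP genes lay on opposite sides of the control array on the CLA diets. Of 19 measured, 6 lay above control on c9,t11-CLA and below it on t10,c12-CLA, and 1 lay the other way. The share of all genes on opposite sides was not counted, so this does not set the CYP genes apart. With 1 array per diet none of these differences was tested. The log2 difference of t10,c12-CLA from c9,t11-CLA was -1.27 for Cyp2d9, -1.18 for Cyp2c70, -0.69 for Cyp1a2, -0.47 for Cyp2c29, -0.25 for Cyp21a1 and -0.14 for Cyp2d26, each above control on c9,t11-CLA and below it on t10,c12-CLA. With equal array medians Cyp1a2, Cyp21a1 and Cyp2d26 lay below control on c9,t11-CLA too, at -0.03, -0.16 and -0.17, as did Cyp2d26 after quantile normalization, at -0.30. Cyp2c38 lay the other way, at 0.87. Of these genes, Cyp2d9 and Cyp2c70 passed 2-fold, and the values of Cyp2c29, Cyp21a1 and Cyp2d26 were within the technical spread of 0.51. The median of the CYP genes also had opposite signs, and the t10,c12-CLA median was lower by 0.35 (-0.35 as a difference from that of c9,t11-CLA).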

How the results depend on the processing

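Over 7 alternatives, 58 of the recomputed counts and medians of the CYP genes stayed within 1.5 times (counts) or the technical spread (medians), and 5 did not. The technical spread is that of a single gene and is a loose limit for a median. At 0.51 for c9,t11-CLA it was wider than the CYP median of 0.23. That median was 0.04 with equal array medians and 0.11 after quantile normalization, beside -0.16 and -0.002 over all genes. The number at least 2-fold higher on c9,t11-CLA than on control was 4 after quantile normalization (Cyp2c70 and Cyp2d9 joined), 4 when the floor was the 25th percentile (Cyp17a1 and Cyp1a1 joined, of 24 measured) and 1 when it was the 75th, where Cyp2b10 was no longer measured. The shares of all genes were 2.42%, 7.6% and 1.68%, against 2.98% as deposited. The number at least 2-fold lower was 1 on c9,t11-CLA after quantile normalization (Cyp4v3) and 1 on t10,c12-CLA at the 25th-percentile floor (Cyp2j5), where the shares of all genes were 3.02% and 3.41%. Equal medians moved the median of all genes on c9,t11-CLA by -0.18. Of the 14 CYP genes followed singly, 270 values kept to the technical spread, 4 moved further and 0 past 2-fold turned direction. Many of the 270 could not differ, because another floor leaves the value of a gene that is still measured as it was. Other probe set choices do the same for a gene with a single unmarked probe set. Leaving out marked probe sets turned Cyp2d10 from 0.82 to -0.13 on c9,t11-CLA. No paired analysis was possible because there was 1 array per diet. Genes near the floor of 490.3, such as Cyp1a1, Cyp26a1 and Cyp27b1, are limited by signal over background.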

Other observations

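Probe sets annotated to several CYP genes were left out of the set, and their signals cannot be given to a gene. A probe set shared by Cyp2c37 and Cyp2c50 gave 27542, 22129 and 8306 from control through c9,t11-CLA to t10,c12-CLA. It was 3.32-fold below control on the last, where Cyp2c39 of the same subfamily was highest. A probe set shared by Cyp2c40, Cyp2c67, Cyp2c68 and Cyp2c69 gave 23041, 13773 and 22340 and was lowest on c9,t11-CLA. A probe set shared by Cyp2d9 and Cyp2d12 gave 46365, 72936 and 38522, the same order of arrays as the Cyp2d9 probe set. A probe set shared by Cyp3a11 and Cyp3a16 gave 40187, 67175 and 39917, and one shared by Cyp2a4 and Cyp2a5 gave 48106, 40408 and 51272. A probe set shared by Cyp4a31 and Cyp4a32 gave 3591, 1180 and 861 and was 3.04-fold and 4.17-fold lower than control on c9,t11-CLA and t10,c12-CLA. The last, shared by Cyp4b1 and a pseudogene, gave 302, 389 and 536 near the floor.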
